A study of Mus musculus with 6 samples.

Results

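The AP-1 family and ATF3 were described across 6 RNA-seq libraries of mouse sciatic nerve. The members were the 10 genes Fos, Fosb, Fosl1, Fosl2, Jun, Junb, Jund, Atf3, Batf and Maff, taken by symbol, out of 54309 genes quantified. They hold 30 of 140789 quantified transcripts, 20 of which are protein coding, and the estimated reads and TPM of each gene's transcripts were summed in each library. TPM, a measure scaled to a fixed total per library, corrects for transcript length and is used where levels of different genes are compared. CPM, read counts relative to library size with edgeR's TMM factors, is used where 1 gene is compared between libraries.

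Every library was made from left sciatic nerve, its distal part, of C57BL6/J mice aged 6 to 8 weeks, collected 24 h after surgery, with no transgene or deletion in any group. There were 3 female and 3 male libraries, each made from tissue of 2 pooled animals, so each library is an average of a pair and the p-values measure the spread between pools. The labels disagree on the surgery that all 6 libraries share: a treatment field calls it axotomy, while the written procedure exposes the nerve without transection (sham). No unoperated nerve is analysed here, so levels are levels at that time and not a response to surgery, and sex is the only contrast.

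AP-1 is a dimeric DNA-binding complex of basic leucine zipper (bZIP) proteins. JUN-class proteins pair with each other or with FOS-class proteins, while FOS-class proteins need a partner from outside their own class. Most of the genes are switched on within minutes to hours of a stimulus, downstream of JNK and ERK kinases and serum response factor. In peripheral nerve, JUN is known for driving the repair state of Schwann cells after injury, and ATF3 is a widely used mark of injured neurons and Schwann cells.

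The libraries held 55272138 to 77610593 estimated reads, and TMM factors ran from 0.968 to 1.02. Transcripts of Xist and of the Y-linked gene Ddx3y matched the labelled sex in all 6 libraries. The summed level of 6 Schwann cell markers was 7198 to 11376 CPM in females and 15435 to 20447 CPM in males, none of the markers being at 0, and neuron cell body markers summed to 1.63 to 6.05 CPM. Of the libraries, 2 stood apart by 5 skeletal muscle markers, which summed to 1344 CPM in female 2 and 721 CPM in male 1 against 4.197 to 18.5 CPM in the others. Female 2 also had the highest sum of 3 adipocyte markers, at 240 CPM against 55.5 to 133 CPM.

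Transcripts of all 10 genes were detected in every library, and their levels spanned 14.1-fold from Junb to Fosb. The mean TPM over the 6 libraries was 140 ± 15.1 (SD, n = 6) for Junb, 110 ± 19.9 for Fos, 107 ± 15.6 for Jund and 88.1 ± 5.95 for Jun. Fosl2 followed at 63.5 ± 13.8 TPM and Atf3 at 49.0 ± 8.58 TPM. The lowest 4 were Fosl1 at 22.2 ± 1.85, Maff at 20.5 ± 1.898, Batf at 13.9 ± 1.45 and Fosb at 9.996 ± 4.75 TPM. Even the least abundant by reads, Batf, had 446 to 644 estimated reads in a library, so none was near the limit of detection. In the ranking of all genes by TPM, Junb stood at place 881 to 1209 depending on the library, and Batf at place 7957 to 8785. Fosb, the lowest by mean TPM, ran from place 7161 to 10421.

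**Figure D1:**
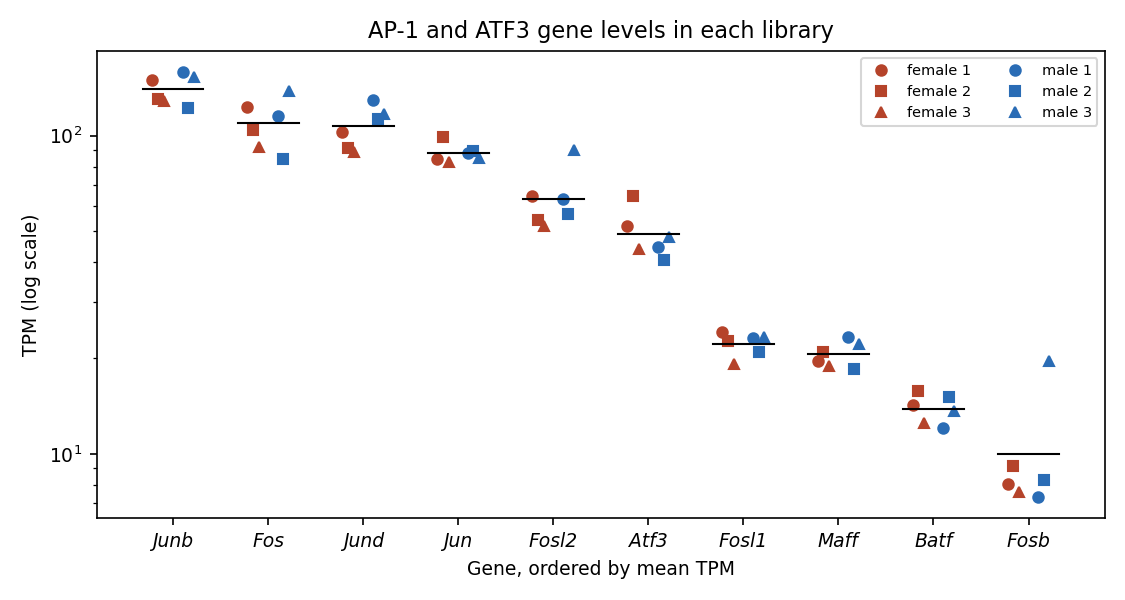
TPM (log scale) of the 10 genes in each library, ordered by mean TPM. Points are libraries, coloured by sex, and horizontal bars are means of 6 libraries. The scatter falls from Junb near 140 TPM to Fosb near 9.996 TPM, where the male 3 point stands apart at 19.6 TPM.

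Only at 2 places in this order did neighbouring genes separate with no overlap of their TPM ranges: between Atf3 and Fosl1, and between Maff and Batf. Elsewhere the ranges overlapped, although Junb exceeded Fos in 6 of 6 libraries, and Jund exceeded Jun, Jun exceeded Fosl2, Fosl2 exceeded Atf3, Fosl1 exceeded Maff and Batf exceeded Fosb in 5 of 6. Fos exceeded Jund in 4 of 6. The genes also differed in how much they varied. By CPM the highest library was 1.19 times the lowest for Fosl1, 1.22 times for Jun and 2.44 times for Fosb, the smallest and largest ratios being those of Fosl1 and Fosb. By TPM Jun had the smallest ratio, 1.20, and Fosb again the largest, 2.67.

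As a share of the summed TPM of the 10 genes, Junb took 21.3% to 23.9% in each library, the largest share of any member in all 6. Fos took 14.9% to 19.5%, Jund 14.9% to 19.8% and Jun 12.0% to 16.2%. The 4 FOS-class genes together made up 39.5%, 37.2% and 36.3% of the FOS-class plus JUN-class TPM in females 1, 2 and 3, and 35.7%, 34.4% and 43.3% in males 1, 2 and 3. JUN-class transcripts were thus the larger part in every library. The mean FOS-class share was 37.7% ± 1.61 (SD, n = 3) in females and 37.8% ± 4.80 in males, a difference of -0.106 percentage points (exact two-sided permutation test, p = 1.0, the smallest possible being 0.1). The sign of so small a difference turned with single libraries: it was 2.64 points without male 3, the library with the highest share, 0.566 without female 3 and 0.115 without female 2.

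Between the sexes, edgeR and limma-voom called no member different, and DESeq2 called Jund alone. By edgeR's quasi-likelihood test with Benjamini-Hochberg adjustment over 19129 genes, 0 of 10 had an adjusted p under 0.05, where 0.11% of all genes were called. At an unadjusted p under 0.05, 1 of 10 passed, Jund, against 14.6% of all genes in either direction and 8.74% with a lower level in females, as in Jund. DESeq2's 1 call stands against 5.28% of the genes it adjusted (3.87% lower in females), and limma-voom called 0, against 0.136% of genes. Of the 10 log2 fold changes (female minus male), 7 lay below 0, against 46.4% of all genes, and their median was -0.08 beside 0.02 for all genes tested. In bulk tissue, fewer cells of a type and less RNA per cell cannot be told apart.

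**Figure D2:**
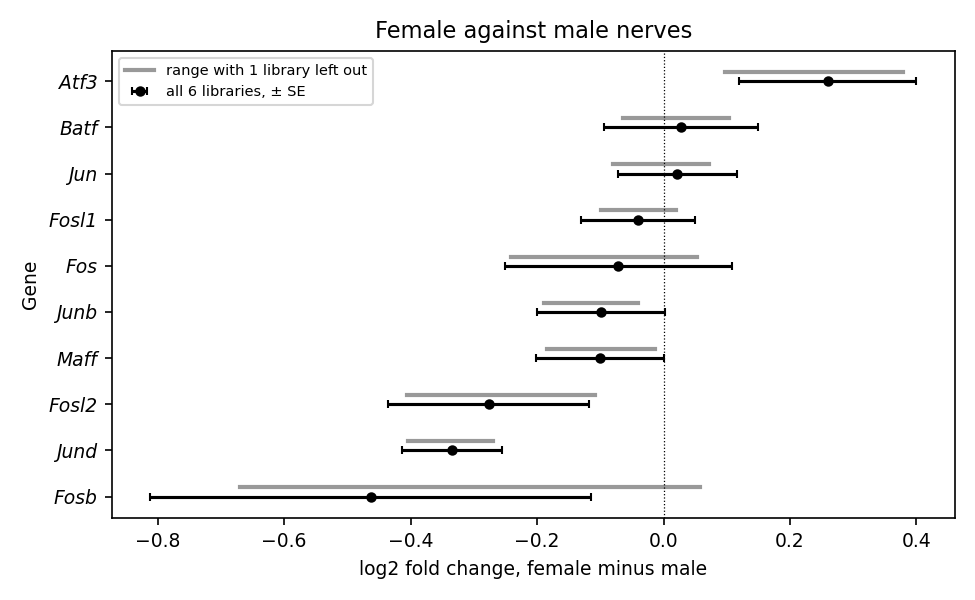
Log2 fold change, female minus male, of the 10 genes. Black points and bars are edgeR's estimate from 6 libraries ± SE, and grey bars are the range with each library left out in turn. Jund is below 0 throughout its range of -0.40 to -0.27, while the ranges of Fos, Fosb, Fosl1, Jun and Batf cross 0.

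Among the FOS-class genes, Fos encodes the founding member, an immediate early transcription factor whose protein is short-lived (main transcript at chr12:85473890-85477273 on GRCm38, plus strand; positions of the other genes are given the same way). Its level was 152, 128 and 114 CPM in females 1, 2 and 3 and 149, 104 and 161 CPM in males 1, 2 and 3. The sexes overlapped, and both the lowest and the highest library were male. The log2 fold change was -0.07 (SE 0.18; edgeR, adjusted p = 0.893), and it was 0.05 without male 3 and 0.02 without female 3.

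Fosb, which encodes a FOS-class activator best known from brain reward circuits (chr7:19302696-19310051, minus strand), stood at 18.7, 20.9 and 17.2 CPM in females 1, 2 and 3. In males 1, 2 and 3 it was at 18.2, 18.1 and 42.1 CPM. Male 3 was thus 2.02 times the next highest library, and the other 5 lay within 17.2 to 20.9 CPM. The log2 fold change was -0.46 (SE 0.35; edgeR, adjusted p = 0.600) and became 0.06 without male 3. Male 3 had the lowest neutrophil marker sum, 633 CPM against 857 to 1580 CPM, and the fewest reads. Of the 5 neutrophil markers, Retnlg was not lowest there, at 44.5 CPM against 35.9 CPM in female 2. Male 3 also had the highest fibroblast marker sum, 6135 CPM against 3630 to 5486 CPM. The part of these in its Fosb level was not tested.

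Fosl2 (chr5:32135801-32157842, plus strand), which encodes FRA2, was at 263, 220 and 210 CPM in females 1, 2 and 3 and at 270, 228 and 342 CPM in males 1, 2 and 3. Male 3 was again the highest, at 1.27 times the next library, and the sexes overlapped. The log2 fold change was -0.28 (SE 0.16; edgeR, adjusted p = 0.479), and -0.11 without male 3. Fosl1 (chr19:5447547-5455946, plus strand) encodes FRA1, which like FRA2 lacks the strong activation domain of FOS. It varied little, from 21.9 to 25.2 CPM in females and from 22.7 to 26.2 CPM in males, with a log2 fold change of -0.04 (SE 0.09; edgeR, adjusted p = 0.876), which was 0.02 without female 3 and 0.00 without male 3. By CPM all 4 FOS-class genes were highest in male 3, which holds the highest value for 14.9% of all genes. By TPM this held for 3 of the 4, Fosl1 being highest in female 1.

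Fosb has transcripts that encode different proteins and had reads in every library, so its splice site is shown. Fosb-201 keeps a segment of 140 bases in its last exon, which Fosb-206 and Fosb-207 excise. The excision joins the codons out of frame and brings a stop codon directly after the junction, which in Fosb-206 gives the truncated protein known as deltaFosB, a form without the C-terminal activation domain. Capitals mark the excised segment (chr7:19305007-19305146, GRCm38, minus strand) in Fosb-201 and the stop codon in Fosb-206. Both stretches span chr7:19304977-19305176, and Fosb-207 has the junction of Fosb-206.
Fosb-201: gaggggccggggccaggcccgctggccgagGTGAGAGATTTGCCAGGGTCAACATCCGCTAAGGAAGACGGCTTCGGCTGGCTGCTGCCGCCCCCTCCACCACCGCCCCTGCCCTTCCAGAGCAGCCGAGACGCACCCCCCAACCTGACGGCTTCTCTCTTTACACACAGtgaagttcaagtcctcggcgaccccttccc
Fosb-206: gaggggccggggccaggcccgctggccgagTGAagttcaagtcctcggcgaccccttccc

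In the GENCODE M21 annotation Fosb-201 codes for 338 amino acids, Fosb-206 for 237 and Fosb-207, which also lacks an inner exon, for 201. Full-length Fosb-201 held most of the gene's TPM in every library, 71.6% ± 6.48 (SD, n = 6). Fosb-206 held 12.1% on average (27.6 to 105 estimated reads in a library) and Fosb-207 held 8.64% (51.0 to 280 reads). Fosb-206 is annotated with 1090 bases, against 3782 for Fosb-201. It stops at chr7:19304797, before the end of Fosb-201 at 19302696, so reads past that point cannot count towards it. The spliced transcripts together made up 13.2%, 18.1% and 23.0% in females 1, 2 and 3 and 14.4%, 30.1% and 25.7% in males 1, 2 and 3. The sexes overlapped, differing by -5.28 percentage points (exact two-sided permutation test, p = 0.4, Benjamini-Hochberg adjusted 0.64 over 8 transcript shares compared). In TPM the spliced transcripts reached 5.05 in male 3 against 1.05 to 2.49 in the other 5 libraries, while that library's share, 25.7%, lay below the 30.1% of male 2.

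**Figure D3:**
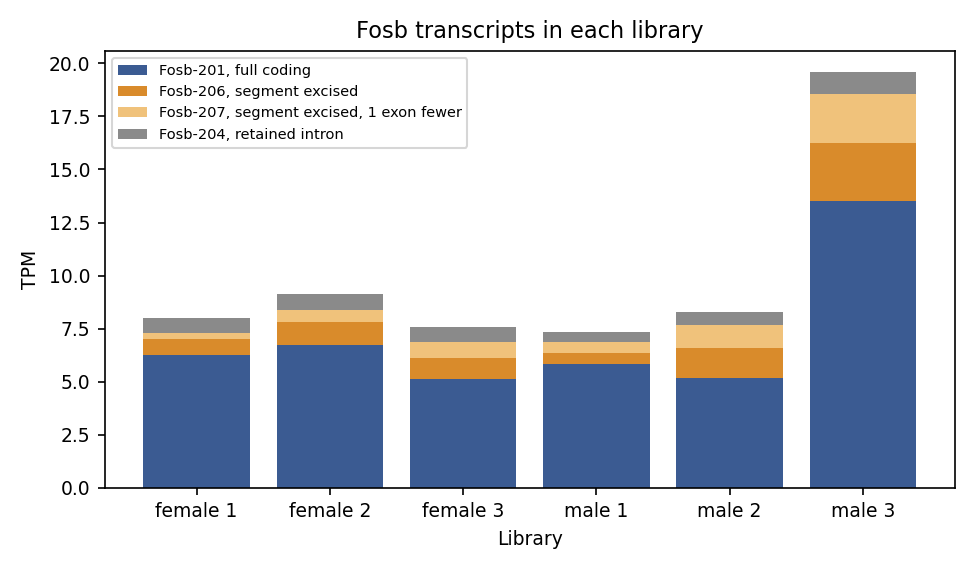
TPM of 4 Fosb transcripts in each library, stacked. Blue is the full coding transcript, orange shades are the transcripts with the segment excised, and grey is a retained-intron transcript. The male 3 bar reaches 19.6 TPM with every part taller than elsewhere. Fosb-202, with 8.53 reads in female 1 and 0 in the rest, is not drawn.

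Of the JUN-class genes, Jun encodes the partner that Schwann cells use in the repair state (chr4:95049034-95052222, minus strand). It was at 167, 200 and 164 CPM in females 1, 2 and 3 and at 178, 180 and 165 CPM in males 1, 2 and 3. Apart from female 2 the libraries lay close together. The log2 fold change was 0.02 (SE 0.09; edgeR, adjusted p = 0.941) and it turned to -0.08 without female 2 and to -0.06 without both libraries that carried muscle transcripts. Junb (chr8:84976910-84978718, minus strand), whose product is a weaker activator that can hold JUN in check, was at 173, 156 and 151 CPM in females 1, 2 and 3 and at 184, 149 and 181 CPM in males 1, 2 and 3. These overlapped, with a log2 fold change of -0.10 (SE 0.10; edgeR, adjusted p = 0.701), which ran from -0.19 to -0.04 with 1 library left out.

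Jund, the class member that is transcribed in resting cells of most tissues (chr8:70698949-70700616, plus strand), was the member with the clearest separation of the sexes. It was at 79.9, 73.0 and 66.3 CPM in females 1, 2 and 3 and at 93.1, 90.9 and 92.3 CPM in males 1, 2 and 3. Every female library was below every male library, which holds for 11.5% of all genes. No member lay above in every female library, as 9.65% of genes did, so 1 of 10 members did not overlap, beside 21.2% of genes. The male mean of 92.1 ± 1.15 CPM (SD, n = 3) was 1.26 times the female mean of 73.05 ± 6.79 CPM. The log2 fold change was -0.33 (SE 0.08) with an unadjusted p of 0.00313 and an adjusted p of 0.159 in edgeR, against an adjusted p of 0.0184 in DESeq2, and 0.0184 to 0.342 over all alternatives. It was -0.33 without female 2 and male 1, and between -0.40 and -0.27 with any 1 library left out. The Schwann cell and fibroblast marker sums also separated the sexes, at 3630 to 4372 CPM in females against 5167 to 6135 CPM in males for 4 fibroblast markers and, as given above, 7198 to 11376 against 15435 to 20447 CPM for Schwann cells. Their part in the Jund values was not tested. Jund took 15.7% ± 0.69 of the TPM of the 10 genes in females and 18.6% ± 1.82 in males.

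Atf3, a stress-induced relative in the ATF/CREB branch that binds DNA alone or with JUN proteins (chr1:191170296-191183340, minus strand), leaned the other way. It was at 68.7, 85.8 and 58.7 CPM in females 1, 2 and 3 and at 63.3, 53.5 and 61.3 CPM in males 1, 2 and 3. Female 2 was 1.25 times the next library, and female 3 lay below males 1 and 3, so the groups overlapped. The log2 fold change was 0.26 (SE 0.14; edgeR, adjusted p = 0.448). It was 0.10 without female 2 and 0.15 without both female 2 and male 1. Female 2 is the library with the highest muscle and adipocyte marker sums and the highest macrophage sum, 1410 CPM against 709 to 1090 CPM, and the part of these in its Atf3 level was not tested.

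Atf3's share within the group of 10 separated the sexes where its level did not. It took 8.08%, 10.6% and 8.07% of the summed TPM in females 1, 2 and 3 and 6.72%, 7.16% and 6.76% in males 1, 2 and 3. These shares did not overlap. Neither did those of Jund, which lay the other way, at 14.9% to 16.2% in females against 16.5% to 19.8% in males. By level, 21.2% of all genes did not overlap, and no such figure was computed for shares. The percentages of the 10 genes add to a fixed total, so the shares of Atf3 and Jund are not independent, and neither was tested. Measured against Jun alone, Atf3 reached 0.601 ± 0.061 (SD, n = 3) of Jun's TPM in females and 0.509 ± 0.053 in males, and these ratios overlapped, female 3 being at 0.534 and male 3 at 0.562.

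Batf (chr12:85686669-85709087, plus strand), which is mostly known as the JUN partner of lymphocytes and other immune cells, ranged from 7.48 to 9.36 CPM over the females and from 7.53 to 9.08 CPM over the males. Its log2 fold change was 0.03 (SE 0.12; edgeR, adjusted p = 0.942), and its sign turned without female 2 or male 1. T cell markers, 4 genes, summed to 3.06 to 3.65 CPM in females and 4.32 to 7.15 CPM in males, without overlap, while Batf overlapped. Macrophage marker sums overlapped as well, at 866 to 1410 CPM in females and 709 to 1090 CPM in males. The part of either cell type in the Batf level was not tested. Maff (chr15:79347520-79359076, plus strand), a small MAF protein that has a zipper but no activation domain, ranged from 21.6 to 24.3 CPM over the females and from 21.7 to 27.3 CPM over the males. The sexes overlapped, with a log2 fold change of -0.10 (SE 0.10; edgeR, adjusted p = 0.693), which ran from -0.18 to -0.01 with 1 library left out.

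The libraries' highest values fell to different members. Jun, Atf3 and Batf were highest in female 2, which holds the highest CPM of 21.7% of all genes, while Junb, Jund and Maff were highest in male 1, as were 24.8% of all genes. Over the 6 libraries, 34 of 45 pairs of members had a positive Pearson r of log2 CPM. The share of positive pairs among other genes was not computed, so this count cannot be read as a trait of the family. None of the 45 passed adjustment (exact permutation tests, smallest Benjamini-Hochberg adjusted p 0.313 for r and 0.357 for Spearman's rho), and 5 had an unadjusted p under 0.05. Fos and Junb, the pair with the highest r of the 45, had r = 0.94 (exact p = 0.0194, adjusted 0.313) and rho = 0.83 (exact p = 0.0583, adjusted 0.357). Without the 2 libraries farthest from the median of Fos, r was 0.89, and within the 3 females and the 3 males it was 0.99 and 0.97. An r over 3 libraries says little: for Batf and Maff it was 1.0 within the females and -0.997 within the males. For Jun and Atf3, r was 0.62 (exact p = 0.182, adjusted 0.585) and rho 0.37 (exact p = 0.497, adjusted 0.771), and r was -0.61 without the 2 farthest libraries, 0.94 within the females and -0.45 within the males. The difference between the Fos and Junb pair and the Jun and Atf3 pair was not tested.

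**Figure D4:**
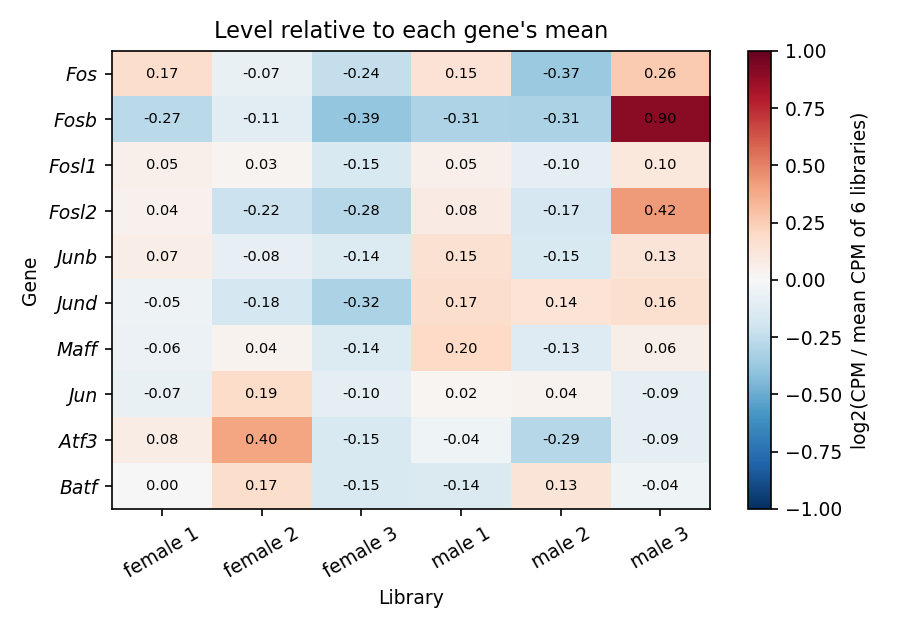
Level of each gene in each library relative to the gene's mean, as log2 of CPM over the mean CPM of 6 libraries. Red is above the mean and blue below. The FOS-class rows are red in male 3, with Fosb at 0.90, the Jund row is blue in all 3 females, and Atf3 is at 0.40 in female 2.

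Among 10370 genes with a mean CPM of at least 10, the 5 with the highest r to Atf3 over the 6 libraries were Gtpbp2 (r = 0.98), Ccl12 (0.98), Gfra1 (0.98), Slc25a44 (0.97) and Dgat2 (0.97). Each had its highest value in female 2, such as 59.8 CPM for the chemokine gene Ccl12 against 31.1 to 39.5 CPM elsewhere, and 31.4 CPM for the triglyceride synthesis gene Dgat2 against 17.8 to 22.0 CPM. The 5 nearest to Jun were Cyb561a3 (0.99), Adprh (0.97), Phrf1 (0.97), Ezr (0.97) and Rsc1a1 (0.97), also highest in female 2. These are descriptions over 6 points picked from many genes, and 19 genes reached r of at least 0.95 with Atf3 and 12 with Jun.

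Apart from Fosb, most members were read almost wholly from 1 transcript. Jun-201 and Jund-201 are single-exon transcripts and the only ones quantified for their genes, and Junb-201 held 99.98% of its gene's TPM on average. Atf3-201 held 99.7%, Batf-201 99.3%, Fosl2-201 97.1%, Fos-201 95.5% and Maff-201 93.0%. Fosl1 was more mixed, with 84.4% ± 3.69 (SD, n = 6) in Fosl1-201, 10.4% in the retained-intron transcript Fosl1-202 and 5.17% in Fosl1-203. The last of these has an open reading frame of 69 amino acids, against 273 for Fosl1-201, and was given 0 reads in female 3 and male 3. Of the 30 transcripts, 3 had no read in any library.

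The share of transcripts without a coding frame was compared in the 7 members that have them. It was higher in every female library than in every male one for 2 of them, Fosl1 and Fosb, as it was for 7.31% of all tested genes with such transcripts. In Fos, Fosl2, Junb, Batf and Atf3 the sexes overlapped, and in Atf3 the female mean was the lower one. For Fosl1 this share was 11.6%, 12.4% and 11.6% in females 1, 2 and 3 and 7.44%, 8.53% and 10.7% in males 1, 2 and 3, resting on 24.2 to 45.9 estimated reads. For Fosb, where it is the retained-intron transcript Fosb-204, it was 8.67%, 8.23% and 9.49% in females 1, 2 and 3 and 6.07%, 7.40% and 5.39% in males 1, 2 and 3. The exact permutation test gave p = 0.1 for each, the smallest that 3 against 3 allows, and 0.4 after adjustment over the 8 shares, so the comparison could not reach the threshold. In edgeR's transcript use test (diffSpliceDGE), 18 member transcripts of 6 genes were tested and 0 passed the adjusted threshold, beside 0.149% of all 49689 transcripts. By limma's diffSplice 0 passed as well, beside 0.0986%.

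At an unadjusted p under 0.05, 1 of the 18 passed in diffSpliceDGE, beside 1.7% of all transcripts, and it is named here after its value was seen. Atf3-203 starts at an alternative first exon at chr1:191218039 and encodes the same 181 amino acids as Atf3-201. It was given 13.6, 28.0 and 27.7 reads in females 1, 2 and 3 and 0, 4.30 and 4.39 reads in males 1, 2 and 3. All females were above all males, but the transcript held at most 0.632% of Atf3 TPM in any library. The log2 difference in use was 1.77 (unadjusted p = 0.0143, adjusted p = 1.0), and the error of the read split between transcripts is not part of this test.

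The promoters of Atf3 and Jun are shown, as the proteins of these genes are known to bind their own promoters. That of Maff is shown next to them, as its transcripts start at several sites. RefSeq promoter windows (GRCm38.p6, 250 bases before to 50 after the start) were found for 9 of the 10 genes, 11 windows in all. Each was searched on both strands for TGACGTCA, the cAMP response element that ATF/CREB proteins bind, its variants TTACGTCA and TGACATCA, the AP-1 site TGACTCA, and the CArG box of serum response factor. These are in 1.79%, 0.499%, 3.62%, 5.2% and 1.63% of 32851 windows of the same length. The 120 bases before each start follow, with the motif in capitals: Atf3 at chr1:191183334-191183453 (minus strand), Jun at chr4:95052223-95052342 (minus strand) and Maff, at the start of Maff-201, at chr15:79347400-79347519 (plus strand).
Atf3: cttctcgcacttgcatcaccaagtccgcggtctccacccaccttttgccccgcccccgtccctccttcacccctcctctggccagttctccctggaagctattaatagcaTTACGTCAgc
Jun: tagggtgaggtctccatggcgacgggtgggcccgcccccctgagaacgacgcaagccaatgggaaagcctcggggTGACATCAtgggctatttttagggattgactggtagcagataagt
Maff: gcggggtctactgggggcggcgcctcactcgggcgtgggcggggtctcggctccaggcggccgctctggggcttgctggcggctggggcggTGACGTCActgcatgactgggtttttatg

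The match lies at bases -10 to -3 from the start in Atf3, -45 to -38 in Jun and -29 to -22 in Maff. In Maff the window with TGACGTCA belongs to the transcript that held 91.5% to 95.5% of the gene's TPM. The window of Maff-203, which held 2.36% on average, had no match, and that of Maff-204, which held 1.10%, had TGACATCA. No other window of a member held any of the 5 motifs, which says only that these letters are not in these windows. The RefSeq start used for Jund lies 1210 bases from the start of the quantified transcript, and the Fosl2 window lies nearest to the minor retained-intron transcript Fosl2-202, not to the start of Fosl2-201, so the windows of these genes do not cover the start of their main transcript.

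In 6 lists of related genes, 103 of 106 genes could be tested and 0 were called in either direction by edgeR, where 0.11% of all genes were. At an unadjusted p under 0.05 there were 18, near the 14.6% of all genes. Among 25 bZIP partners and relatives, 0 were called and the median log2 fold change was 0.02. The stress factor Atf4 was at -0.08, Maf at 0.06, Nfe2l1, a regulator of proteasome genes, at -0.13, and Bach1, a haem-sensing repressor, at 0.09. For 21 kinases and serum response factor partners upstream of AP-1 the median was 0.03. Here Mapk3, which encodes ERK1, averaged 216 ± 17.5 CPM (SD, n = 3) in the females against 294 ± 29.3 CPM in the males, without overlap (log2 fold change -0.45; edgeR, adjusted p = 0.143). Mapk14, encoding p38 alpha, was at 0.09 and Rps6ka3, encoding the ERK-activated kinase RSK2, at 0.12. Of 11 ubiquitin ligases and phosphatases that end the signal, with a median of 0.02, the JUN ligase genes Cop1 and Itch were at -0.08 and 0.01. Dusp1, which encodes a phosphatase of JNK and p38, was at 0.34 (105 ± 28.1 against 83.5 ± 23.5 CPM) and Dusp6, for ERK, at 0.20.

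Of 21 other immediate early genes tested, 8 were highest in male 3 and 8 in male 1, where 14.9% and 24.8% of all genes were highest, 3 in female 2 and 2 in female 1. Their median log2 fold change was -0.16, with 15 of 21 below 0, against 46.4% of all genes. None was called, beside 0.11% of genes, and 3 of 21 had an unadjusted p under 0.05 in edgeR, as did 14.6% of all genes. Egr1, a zinc finger factor induced along with Fos, averaged 138 ± 7.66 CPM (SD, n = 3) in the females and 166 ± 60.8 CPM in the males, with 226 CPM in male 3. Egr2, which in Schwann cells also drives myelin genes, was at -0.31, Zfp36, which destabilises cytokine mRNAs, at -0.02 and Klf6 at 0.06. Chosen after its values were seen, the orphan receptor gene Nr4a1 was at 209 CPM in male 3 and 88.7 to 140 CPM elsewhere.

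Of 16 known AP-1 targets 15 were tested and 0 called, with 7 at an unadjusted p under 0.05, where 14.6% of all genes were, and a median of 0.16. Hmox1, which encodes haem oxygenase 1, averaged 505 ± 48.1 CPM in the females against 316 ± 15.6 CPM in the males (SD, n = 3), with no overlap, and its log2 fold change of 0.68 had an adjusted p of 0.0729 in edgeR, the smallest of the list together with Mmp13. Timp1, a metalloproteinase inhibitor, was at -0.27, Spp1, encoding osteopontin, at 0.16 and Cd44, a hyaluronan receptor, at 0.06. Of 11 genes that depend on JUN in injured Schwann cells, 10 were tested and 0 called, with a median of -0.07. Among them the signalling ligand genes Shh and Gdnf were at 0.13 and 0.19, the neurotrophin receptor gene Ngfr at -0.08 and Nes, encoding nestin, at -0.06. The Schwann cell marker sum, lower in every female library than in every male one, was not set against this list in a test.

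**Figure D5:**
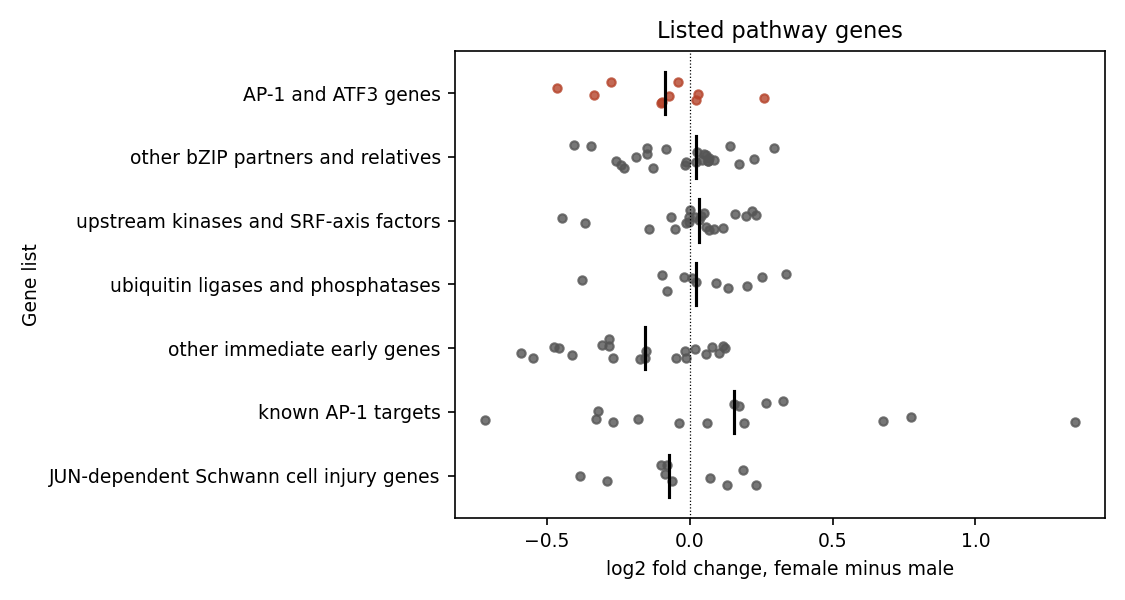
Log2 fold change, female minus male, of each tested gene of the 10 members and of the 6 lists; vertical bars are medians. Points of every list lie on both sides of 0, and the medians run from -0.16 for the other immediate early genes to 0.16 for the known AP-1 targets.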

How the data were processed

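Tools listed in the submitters' processing notes are Salmon 1.5.2, Trimmomatic 0.39 and MultiQC 1.9. Each library's table gives, per the file headers, estimated counts and TPM per transcript. The estimated counts were deposited without normalization, and TPM was deposited as Salmon computed it. Neither build nor annotation release nor the use of strand in counting is stated there (not given in the sources used here). Libraries were poly-A selected and stranded, per the labels' protocols.

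Estimated counts were summed per gene and rounded. edgeR 4.0.16 (filterByExpr, TMM, robust quasi-likelihood test, no covariate, Benjamini-Hochberg adjustment) was run over all 19129 genes kept, and gave a common biological coefficient of variation of 0.183. Transcript use was tested with diffSpliceDGE. Both were tested on simulated data, where diffSpliceDGE made false calls, so limma 3.58.1 diffSplice was added after seeing the data. DESeq2 1.42.0 was an alternative. Correlations used log2(CPM + 0.5). No pair of libraries agreed within counting noise (smallest chi-square per degree of freedom 26.3).

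Transcript structures came from GENCODE M21 (GRCm38) by transcript name, and 29 of 30 member transcripts had the deposited length, so coordinates are those of M21. The members and gene lists were chosen with earlier results of these data known. All 10 members are named, with the 4 genes of highest mean CPM and any called gene of each list, transcripts of at least 5% of their gene's TPM, and the 5 genes most like Atf3 and Jun. Values named outside this rule are said to be so, or describe a minor transcript of a member. A gene that the rule would name is not reported here.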

Additional observations from a re-analysis of the deposited data

How the results depend on the processing

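With 2 pooled animals per library and 3 libraries a sex, the design resolves only differences well above the spread between pools. The members' call count was 0 under every alternative run except DESeq2, which gave 1 (Jund), and no member transcript passed the use test under any. The count over all genes was 21, and became 191 with no low-count filter, 871 with DESeq2, 10 with limma on log2(TPM + 1), and 4 to 205 with 1 library left out (205 without female 3). With the replicate number as a block it was 3. Same-numbered female and male libraries' deviations from their sex's mean correlated at -0.10, -0.19 and 0.01, and differently numbered ones at -0.07 to 0.14. No pairing by number shows in these values, but deviations from a mean of 3 libraries are tied together, so they cannot exclude it. The block called 0 members, as did the fit without it. The signs of 5 members' fold changes and of the share turned in places. Without female 2, Jun was at -0.08, Batf at -0.0645 and the FOS-class share at 0.115 points. Without female 3, Fos was at 0.0189, Fosl1 at 0.0195 and the share at 0.566 points. Without male 1, Batf was at -0.0281. Without male 3, Fos was at 0.0535, Fosb at 0.058, Fosl1 at 0.0009, Jun at -0.0192 and the share at 2.64 points. Without both female 2 and male 1, Fos was at 0.0071, Jun at -0.0596, Batf at -0.1195 and Fosb, keeping its sign, at -0.74. The lowest and highest values with 1 library left out were -0.2404 and 0.0535 for Fos, -0.6691 and 0.058 for Fosb, -0.0985 and 0.0195 for Fosl1, -0.08 and 0.0719 for Jun and -0.0645 and 0.1033 for Batf. With 1 library left out the share ran from -1.81 to 2.64 points. Causes were not tested. Fosl2, Junb, Jund, Atf3 and Maff kept their signs under all 19 alternatives. Counting only protein-coding transcripts moved mean Fosl1 from 22.2 to 19.9 TPM. TPM and read shares of transcripts carry no error for Salmon's division of reads between transcripts of 1 gene.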

Other observations

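Some genes of the lists outside the naming rule, chosen after their values were seen, had patterns that the lists' medians do not show. Egr3, an immediate early zinc finger gene, was at 45.2 CPM in male 3 against 16.6 to 29.5 CPM in the other libraries. Mmp13, a collagenase gene and known AP-1 target, was at 4.61, 5.64 and 3.64 CPM in females 1, 2 and 3 and at 1.94, 1.69 and 1.81 CPM in males 1, 2 and 3. Its log2 fold change was 1.35 (edgeR, adjusted p = 0.0729), the largest among the 103 listed genes tested. Hbegf, encoding an EGF receptor ligand, lay the other way, averaging 148 ± 12.4 CPM (SD, n = 3) over the females against 185 ± 4.51 CPM over the males. Nr4a2, an orphan receptor gene, averaged 76.4 ± 3.70 CPM over the females against 105 ± 17.0 CPM over the males. The sexes did not overlap for either gene, as was so for 21.2% of all genes. Neither was called (edgeR, adjusted p = 0.165 for Hbegf and 0.171 for Nr4a2).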
